A study of Mus musculus with 6 samples.

Results

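Chemokine ligands were examined in MLL-AF9 leukemia cells after pharmacological activation of p53. The set comprised 10 genes chosen by symbol, of the 26082 gene names in the deposited expression table: the CC chemokines Ccl2, Ccl3, Ccl4, Ccl5, Ccl6 and Ccl9 and the CXC chemokines Cxcl2, Cxcl9, Cxcl10 and Cxcl16. RNA-Seq was performed on leukemia cells from the bone marrow of 6 mice of the strain C57BL/6J, all carrying cells with the transduced fusion oncogene MLL-AF9. Of these mice, 3 received vehicle and 3 received a single oral dose of DS-5272 at 80 mg/kg, and leukemia cells were sorted 24 h later. DS-5272 blocks the binding of p53 to its negative regulator MDM2. The model is a retroviral one: c-Kit+ bone marrow progenitors received MLL-AF9 from a viral vector and were transplanted, so a viral promoter and not the native locus drove the fusion, and the leukemia was passed on to recipients that were not irradiated and kept their own immune cells. Each library came from 1 mouse, and the labels give no age of the mice.

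Chemokines are small secreted proteins that guide leukocytes along concentration gradients, and they act through G protein-coupled receptors. The CC and CXC families are told apart by the spacing of the first cysteines. Cxcl2 attracts neutrophils through Cxcr2. Ccl3 and Ccl5 act through Ccr1, and Ccl3, Ccl4 and Ccl5 attract monocytes and T cells, while Ccl2 recruits monocytes through Ccr2. Ccl6 and Ccl9 are rodent chemokines of myeloid cells that act through Ccr1. Cxcl16 is made as a membrane-bound protein with a soluble form and binds Cxcr6, and Cxcl9 and Cxcl10 are interferon-inducible ligands of Cxcr3 on T cells and NK cells. In bone marrow, Cxcr2 ligands are known for the release of neutrophils and Ccl2 for the exit of monocytes. Many chemokine genes are transcribed through NF-kB and AP-1, and their mRNAs are short-lived.

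All 10 ligand mRNAs were detected in each of the 6 libraries. With DS-5272, 6 of the 9 ligands that could be tested rose (Ccl2, Ccl4, Ccl5, Ccl6, Ccl9 and Cxcl16) and none fell, at an adjusted p under 0.05 from limma, while 24.2% of all genes tested were called higher. The largest rises were those of Ccl6, Ccl4 and Ccl2, with log2 fold changes of 3.86, 3.78 and 3.71. Such a rise was rare in this table, since 0.566% of the tested genes had a log2 fold change of at least 3. Cxcl2, Ccl3 and Cxcl10 were higher with DS-5272 in each same-numbered pair of mice, but their values overlapped between the groups and did not pass the test. With the replicate number as a block in the fit, these 3 passed as well, giving 9 of 9 ligands, where 30.3% of all genes were called higher and 24.9% lower. Cxcl9 was low throughout. The median log2 fold change was 2.47 over the 9 ligands and 0.04 over all 11130 genes tested. Since the ligands were chosen with earlier results of these data known, such comparisons with all genes only describe them.

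Values are FPKM, fragments scaled to transcript length and library size, and the test compared log2(FPKM + 1) between the groups for those that averaged 1 FPKM or more, so fold changes of low genes are understated. Estimated depth was 34800000 to 43200000 fragments in the vehicle libraries and 23300000 to 32300000 fragments in the DS-5272 libraries, and all 3 vehicle libraries were deeper. The leukemia cells had the myeloid genes of their label: Over all libraries Elane, Prtn3 and Ly6c2 had the highest means of the leukemia and myeloid markers, whose summed level was 3826 to 4882 FPKM with vehicle and 2702 to 2848 FPKM with DS-5272. Of the 9 markers tested, 3 were called higher (Itgam, Csf1r and Ptprc) and 4 lower (Mpo, Elane, Prtn3 and Kit), named after their values were seen, and with DS-5272 Itgam had the highest mean. Over all genes tested, 24.2% were called higher and 22.0% lower. Replicate 1 of each group stood apart in a set of immediate early genes, a group induced within minutes of stimulation or of handling of cells and chosen here after values were seen (Fos, Fosb, Jun, Junb, Egr1, Ier2, Ier3, Dusp1, Atf3 and Btg2). Together they reached 258, 2977 and 3143 FPKM with vehicle (replicates 1, 2 and 3) and 937, 4907 and 6445 FPKM with DS-5272. In bulk RNA, fewer cells of a type and less RNA per cell cannot be told apart.

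The genes fall into a few chromosomal clusters, and the positions are those of the GENCODE annotation of GRCm38. On chromosome 11, Ccl5 (chr11:83525778-83530518), Ccl9 (chr11:83572919-83578636), Ccl6 (chr11:83587882-83593087) and Ccl3 (chr11:83647844-83649355) lie on the minus strand, and Ccl4 (chr11:83662584-83664683) lies next to them on the plus strand. Ccl2 (chr11:82035571-82037453, plus strand) belongs to a second group with Ccl7, Ccl11, Ccl12 and Ccl8. Cxcl16 (chr11:70453983-70459984, minus strand) lies apart from the other chemokine genes. On chromosome 5, Cxcl2 (chr5:90903871-90905938, plus strand) neighbours Cxcl1, and Cxcl9 (chr5:92321347-92328079, minus strand) neighbours Cxcl10 (chr5:92346638-92348889, minus strand). Exons of Cxcl16 overlap Zmynd15 and exons of Cxcl10 overlap Art3, each on the other strand, and no source says that strand was used in counting. Of the exonic 50-base words of Cxcl2, 5.84% also occur in Cxcl3, while Ccl2, Ccl3, Ccl4, Ccl5, Ccl6, Cxcl10 and Cxcl16 share none with another gene.

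Promoter sequences of RefSeq for GRCm38.p6 were at hand for 6 of the 10 genes: Ccl3, Ccl6, Ccl9, Cxcl2, Cxcl9 and Cxcl10. The 250 bases before the transcription start of 4 of them are shown, since these genes differ in how they behaved among the mice. They are the widely varying Cxcl2 (chr5:90903649-90903898, plus strand), the interferon-inducible Cxcl10 (chr5:92348890-92349139, minus strand), and the steadier neighbours Ccl9 (chr11:83578637-83578886, minus strand) and Ccl6 (chr11:83593088-83593337, minus strand). Positions count from the RefSeq start, which for Cxcl2 lies downstream of the GENCODE start, so the last bases of its window fall inside the gene as placed above. Capitals mark matches on either strand to the NF-kB consensus, to an interferon response element (a pair of GAAA words 2 bases apart) and to TGANTCA (an AP-1 site).
Cxcl2: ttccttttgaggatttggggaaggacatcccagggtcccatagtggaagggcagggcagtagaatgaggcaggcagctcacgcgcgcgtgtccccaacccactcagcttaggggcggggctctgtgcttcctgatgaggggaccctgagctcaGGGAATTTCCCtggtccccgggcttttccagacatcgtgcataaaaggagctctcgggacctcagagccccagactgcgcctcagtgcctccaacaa
Cxcl10: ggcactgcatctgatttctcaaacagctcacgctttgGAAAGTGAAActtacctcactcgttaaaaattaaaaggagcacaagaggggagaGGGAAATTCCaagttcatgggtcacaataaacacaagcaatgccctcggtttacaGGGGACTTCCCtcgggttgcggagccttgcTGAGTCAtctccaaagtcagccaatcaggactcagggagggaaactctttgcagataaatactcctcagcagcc
Ccl9: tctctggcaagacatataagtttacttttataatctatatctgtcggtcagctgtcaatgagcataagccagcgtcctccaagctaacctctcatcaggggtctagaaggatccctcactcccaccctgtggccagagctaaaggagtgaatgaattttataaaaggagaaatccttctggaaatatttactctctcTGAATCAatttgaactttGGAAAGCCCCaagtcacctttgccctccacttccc
Ccl6: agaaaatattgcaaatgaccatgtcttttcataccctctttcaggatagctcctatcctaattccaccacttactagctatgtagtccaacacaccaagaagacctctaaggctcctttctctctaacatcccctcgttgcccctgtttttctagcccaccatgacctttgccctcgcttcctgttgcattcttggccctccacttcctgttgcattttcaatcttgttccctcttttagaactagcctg
Cxcl2 held NF-kB matches on both strands, in GGGAATTTCCC at bases -97 to -87 from the start, and Cxcl3 held the same letters at -73 to -63. Cxcl10 held NF-kB matches at -159 to -150 and -104 to -94, the interferon element at -213 to -204 and an AP-1 match at -74 to -68. Ccl9 held an AP-1 match at -53 to -47 and, on the opposite strand, an NF-kB match at -35 to -26. Ccl6, Ccl3 and Cxcl9 had no match in this window. The NF-kB consensus occurred in 7.25%, the interferon element in 2.98% and TGANTCA in 6.75% of the 32851 promoter windows of the same length. The full p53 consensus occurred in 0.06% of the windows and in none of the 6 ligands. A match in letters is a description and does not show that a factor bound there.

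The neutrophil attractant Cxcl2 had the widest spread. Its FPKM was 8.38, 269 and 343 in vehicle replicates 1, 2 and 3, and 145, 1371 and 2529 in DS-5272 replicates 1, 2 and 3. Replicate 1 was the lowest of each group, and the DS-5272 value of replicate 1 lay below the vehicle values of replicates 2 and 3. Within same-numbered pairs the DS-5272 mouse was 17.3, 5.09 and 7.37 times higher. The log2 fold change was 3.06 with a standard error (SE) of 1.61 and did not pass (limma adjusted p = 0.159), whereas the replicate block brought the SE to 0.29 and the gene was called (limma adjusted p = 0.0013). The log2 fold change was 1.39 without vehicle replicate 1 and 4.29 without DS-5272 replicate 1. Without replicate 1 of both groups, a setting chosen after the data were seen, it was 2.61. Its size thus depends on which mice are kept.

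Ccl3, which encodes MIP-1 alpha, a ligand of Ccr1 and a known product of myeloid leukemia cells, followed a similar course. Its FPKM was 119, 471 and 504 with vehicle and 384, 1576 and 2019 with DS-5272. The DS-5272 value of replicate 1 again lay within the vehicle range, and the pairs differed by factors of 3.22, 3.35 and 4.01. Without the block the log2 fold change of 1.81 (SE 0.78) did not pass (limma adjusted p = 0.097), and with the block it did, at an SE of 0.09 (limma adjusted p = 0.00035). It also passed without DS-5272 replicate 1, where the log2 fold change was 2.54 (adjusted p = 0.0241 from limma).

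Ccl4, the neighbour of Ccl3, encodes MIP-1 beta, an attractant of monocytes and T cells. Its FPKM was 11.3, 32.3 and 30.3 with vehicle and 142, 396 and 588 with DS-5272, so that the groups lay far apart. The means were 24.6 ± 11.6 and 375 ± 223 FPKM (SD, n = 3), and the log2 fold change was 3.78 (SE 0.59, limma adjusted p = 0.0047). The log2 fold change was 3.32 without vehicle replicate 1 and 4.37 without DS-5272 replicate 1, both past the threshold. As a share of the summed FPKM of the 10 ligands, Ccl4 went from 3.19 to 5.04% with vehicle to 10.59 to 15.47% with DS-5272.

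Ccl2, the monocyte attractant MCP-1, was nearly silent in vehicle replicate 1. Its FPKM was 0.264, 2.65 and 4.85 with vehicle and 12.7, 66.1 and 65.2 with DS-5272. The groups did not overlap, and the pairs differed by factors of 48.2, 24.9 and 13.4. The value of vehicle replicate 1 corresponds to about 9.3 fragments, so its fold is imprecise. The log2 fold change was 3.71 (SE 0.78, limma adjusted p = 0.0102), and it was 3.09 without vehicle replicate 1 and 4.47 without DS-5272 replicate 1, both past the threshold.

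Ccl5, also called RANTES, a ligand of Ccr1 that is made by T cells and NK cells as well as by myeloid cells, was close to the lower limit of the test. Its FPKM was 0.852, 0.699 and 1.41 with vehicle and 2.35, 1.74 and 3.68 with DS-5272, or about 13 to 46 fragments per library. The pairs differed by similar factors of 2.76, 2.49 and 2.61, and the groups did not overlap. The log2 fold change was 0.84 (SE 0.24, limma adjusted p = 0.0275). This call was lost without vehicle replicate 1, vehicle replicate 2 or DS-5272 replicate 3 (adjusted p = 0.077, 0.0956 and 0.0613 from limma). Markers of NK cells summed to 1.38 to 2.28 FPKM with vehicle and 2.60 to 3.81 FPKM with DS-5272, with 7 of 8 markers under a mean of 1 FPKM. Markers of T cells summed to 2.17 to 2.77 and 2.09 to 5.09 FPKM, also with 7 of 8 under 1 FPKM. None of these markers was at 0 in all libraries, and their part in the level of Ccl5 was not tested.

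Ccl6 and Ccl9 are adjacent genes whose products both act through Ccr1. Ccl6 was 3.05, 4.82 and 4.40 FPKM with vehicle and 52.2, 68.7 and 105 FPKM with DS-5272. The vehicle mice differed from each other by at most 1.58 times, and the gap between the groups was many times this spread. Its log2 fold change of 3.86 (SE 0.27, limma adjusted p = 0.00068) was the 15th highest of the 11130 genes tested. Ccl9 started from a higher level and changed less. It was 71.0, 48.6 and 45.4 FPKM with vehicle and 142, 164 and 191 FPKM with DS-5272, with a log2 fold change of 1.59 (SE 0.20, limma adjusted p = 0.0026). Vehicle replicate 1, the lowest for Cxcl2, Ccl3, Ccl4, Ccl2 and Ccl6, was the highest vehicle mouse for Ccl9.

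Cxcl16, a chemokine that is also a scavenger receptor on the cell surface, had the smallest standard error of the 9 ligands tested, without the block. It was 7.93, 4.98 and 5.07 FPKM with vehicle and 33.4, 36.7 and 41.9 FPKM with DS-5272. The means of 6.00 ± 1.68 and 37.3 ± 4.28 FPKM (SD, n = 3) differed by a log2 fold change of 2.47 (SE 0.18, limma adjusted p = 0.00069). The overlapping gene Zmynd15 was lower and moved the same way, at 1.48, 0.927 and 0.731 FPKM with vehicle and 5.36, 5.48 and 7.39 FPKM with DS-5272. The libraries were strand-specific, but since no source says that strand was used in counting, the 2 genes may not be separated where their exons overlap.

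Of the Cxcr3 ligands, Cxcl10 did not pass in the fit of all mice without the block and Cxcl9 was too low to test. Cxcl10, also called IP-10, was 2.04, 3.09 and 8.73 FPKM with vehicle and 5.94, 12.04 and 11.4 FPKM with DS-5272. Vehicle replicate 3 lay above DS-5272 replicate 1, and the pairs differed by factors of 2.91, 3.90 and 1.30. Its log2 fold change of 1.07 (SE 0.46) did not pass (limma adjusted p = 0.0941), and it passed with the replicate block (limma adjusted p = 0.0151) and without vehicle replicate 3 (log2 fold change 1.56, adjusted p = 0.0231 from limma). Art3, which overlaps it, was 0.581 to 0.601 FPKM with vehicle and 0.6604 to 1.96 FPKM with DS-5272.

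Cxcl9 was 0.637, 0.380 and 0.471 FPKM with vehicle and 1.30, 0.579 and 0.467 FPKM with DS-5272. Its mean stayed below 1 FPKM and it was left out of the test. In the fit without a filter its log2 fold change was 0.23 (SE 0.18, limma adjusted p = 0.408). The only clearly higher value was that of DS-5272 replicate 1, the mouse with the highest sum of bone marrow macrophage markers. That sum was 67.2, 87.4 and 119 FPKM with vehicle and 483, 206 and 269 FPKM with DS-5272. Where 24.2% of all genes tested were called higher, 5 of the 12 macrophage markers tested were. Of the most abundant of them, Adgre1 and C1qb were called higher and Vcam1 was not (limma adjusted p = 0.125), and the part of these markers in the level of Cxcl9 was not tested.

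**Figure D1:**
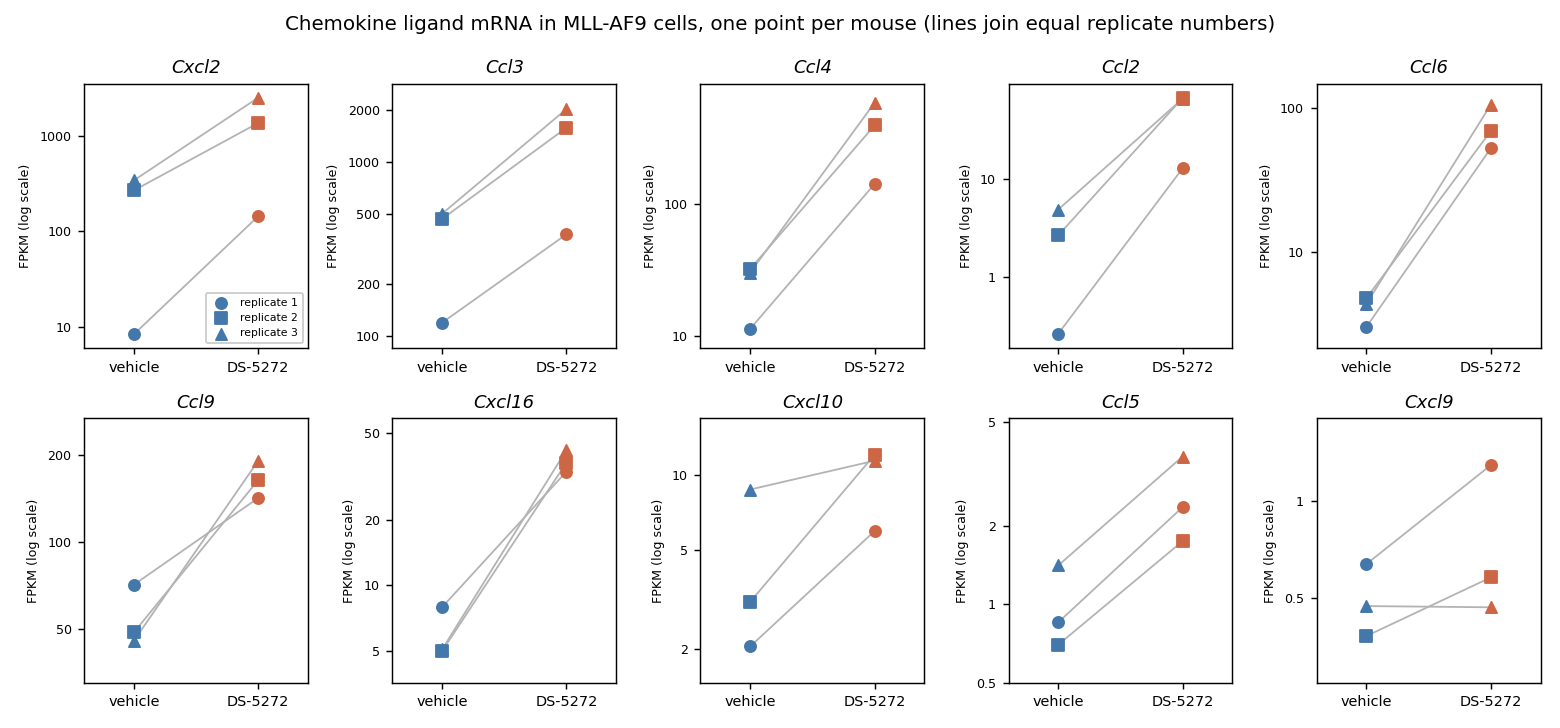
FPKM of each of the 10 ligands on a log axis whose range differs between panels, with vehicle (blue) and DS-5272 (red) and 1 point per mouse; circles, squares and triangles are replicates 1, 2 and 3, and grey lines join equal numbers. Circles lie lowest in both groups for Cxcl2, Ccl3, Ccl4, Ccl2, Ccl6 and Cxcl10, and the groups do not overlap for Ccl4, Ccl2, Ccl6, Ccl9, Cxcl16 and Ccl5.

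Groups without overlap were found for 6 of the 10 ligands, all higher with DS-5272, where 32.1% of all genes tested were higher without overlap. Within pairs, 9 of the 10 were higher in each DS-5272 mouse, against 41.8% of all genes. Replicate 1 was lowest in both groups for 6 ligands (Ccl2, Ccl3, Ccl4, Ccl6, Cxcl2 and Cxcl10), against 29.2% of all genes, and for all 10 immediate early genes. Of those immediate early genes none passed the test without the block and 8 were called higher with it, where 30.3% of all genes were. The part of the immediate early genes, or of what sets replicate 1 apart, in the ligand levels was not tested. Without replicate 1 of both groups, a setting chosen after the data were seen, 7 ligands were called higher, and so were 2498 of the 11130 genes tested. Ccl3 and Cxcl2 were then called, at log2 fold changes of 1.87 and 2.61 (adjusted p = 0.00685 and 0.013 from limma), and Ccl5 was not (0.82, adjusted p = 0.101 from limma).

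**Figure D2:**
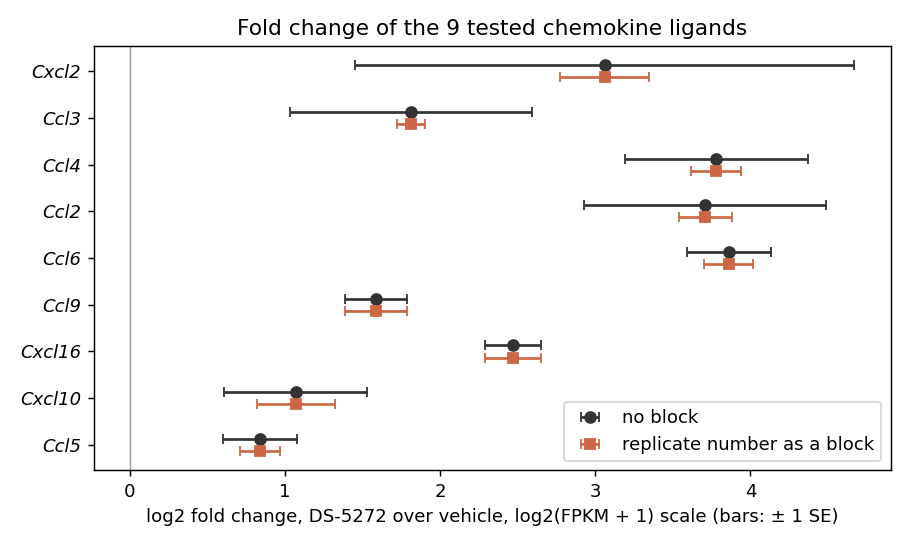
Log2 fold change of DS-5272 over vehicle on the log2(FPKM + 1) scale for the 9 tested ligands, with bars of 1 standard error, without a block (black circles) and with the replicate number as a block (red squares). The bar of Cxcl2 shrinks from 1.61 to 0.29 and that of Ccl3 from 0.78 to 0.09, while those of Ccl9 and Cxcl16 stay at 0.20 and 0.18.

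The ligands thus differed in how much mice of the same group varied. Among the vehicle mice the highest value was 40.9 times the lowest for Cxcl2, 18.3 times for Ccl2 and 4.23 times for Ccl3, but 1.59 times for Cxcl16, 1.58 times for Ccl6 and 1.56 times for Ccl9. Profiles were compared as log2(FPKM + 1) after subtraction of each gene's mean over the 6 libraries, by the root mean square difference. Over these 6 libraries the closest pairs of ligands were Ccl2 and Ccl4, at 0.368, followed by Ccl9 and Cxcl16, at 0.444, and Ccl6 and Ccl4, at 0.471. Cxcl2 was far from every other ligand, with Ccl2 nearest at 1.227.

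**Figure D3:**
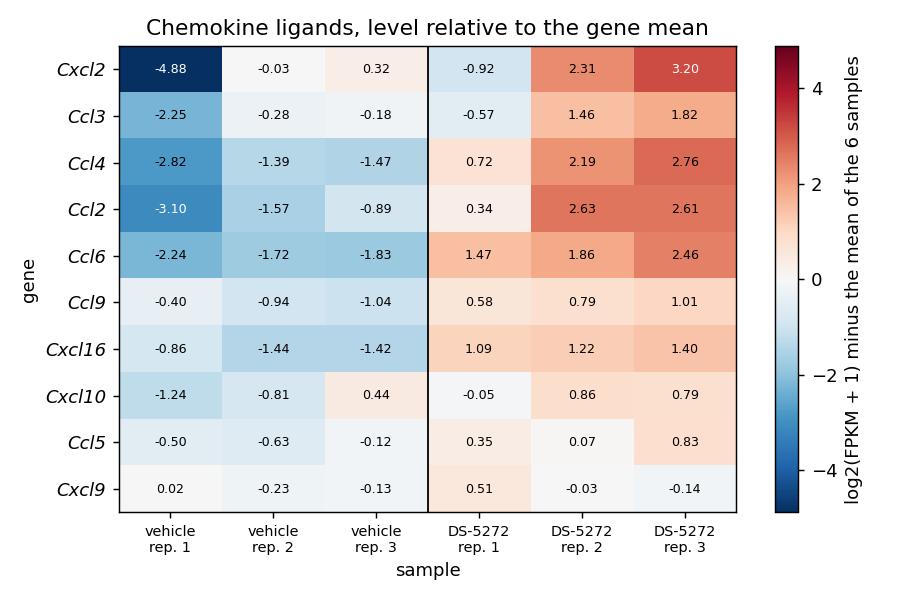
Each cell gives log2(FPKM + 1) of a ligand (rows) in a library (columns) minus the mean of that gene over the 6 libraries, from blue (below) to red (above), with vehicle left of the line and DS-5272 right of it. Cxcl2 runs from -4.88 in vehicle replicate 1 to 3.20 in DS-5272 replicate 3, and Ccl9 from -1.04 to 1.01.

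Outside the ligands, and among genes that averaged 5 FPKM or more, the gene with the profile most like that of Cxcl2 was Atf3, an immediate early transcription factor, at a root mean square difference of 0.473 over the 6 libraries. Atf3 was 0.777, 20.2 and 28.8 FPKM with vehicle and 14.7, 142 and 171 FPKM with DS-5272. Ccl2 was most like Dusp6, a phosphatase of ERK (0.271), Ccl3 like the kinase gene Mapk13 (0.209) and Ccl4 like S100a6 (0.217). Ccl6 was most like Ifitm6 (0.167), Ccl9 like the channel gene Trpv2 (0.069), Cxcl16 like Cfp, which encodes properdin (0.088), Cxcl10 like Gpr84, a receptor for fatty acids (0.232), and Ccl5 like LOC100861793 (0.117). With 6 libraries in 2 groups, many genes come close to any given profile.

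FPKM are scaled to transcript length, so the levels of the ligands can also be ranked within a group. With vehicle the order of the means was Ccl3, Cxcl2, Ccl9, Ccl4, Cxcl16, Cxcl10, Ccl6, Ccl2, Ccl5 and Cxcl9. Ccl9 lay above Ccl4 and Ccl4 above Cxcl16 without overlap of their ranges, as did Ccl5 above Cxcl9. The other neighbours in that order overlapped. With DS-5272 the order was Cxcl2, Ccl3, Ccl4, Ccl9, Ccl6, Ccl2, Cxcl16, Cxcl10, Ccl5 and Cxcl9. The means of Cxcl2 and Ccl3 were 1348 ± 1192 and 1327 ± 846 FPKM (SD, n = 3) and did not differ beyond their spread. Ccl9 lay above Ccl6, Cxcl16 above Cxcl10, Cxcl10 above Ccl5 and Ccl5 above Cxcl9 without overlap, and the other neighbours overlapped.

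The 10 ligands together made up 225, 837 and 948 FPKM in the vehicle libraries and 921, 3693 and 5554 FPKM in the DS-5272 libraries. The sum was 4.10, 4.41 and 5.86 times higher within pairs, yet DS-5272 replicate 1 lay below vehicle replicate 3. The sum of the 6 CC ligands was higher by factors of 3.58, 4.06 and 5.03 within pairs, and that of the 4 CXC ligands by 9.75, 5.12 and 7.23. Ccl3 was the largest part of the sum in every vehicle library, at 53.04 to 56.21%, and held 36.36 to 42.68% with DS-5272. Cxcl2 and Ccl3 together held 88.36 and 89.38% of the sum in vehicle replicates 2 and 3 but 56.77% in vehicle replicate 1, where Ccl9 made up 31.61%. The same held for DS-5272, with 57.41% in replicate 1 and 79.82 and 81.89% in replicates 2 and 3.

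**Figure D4:**
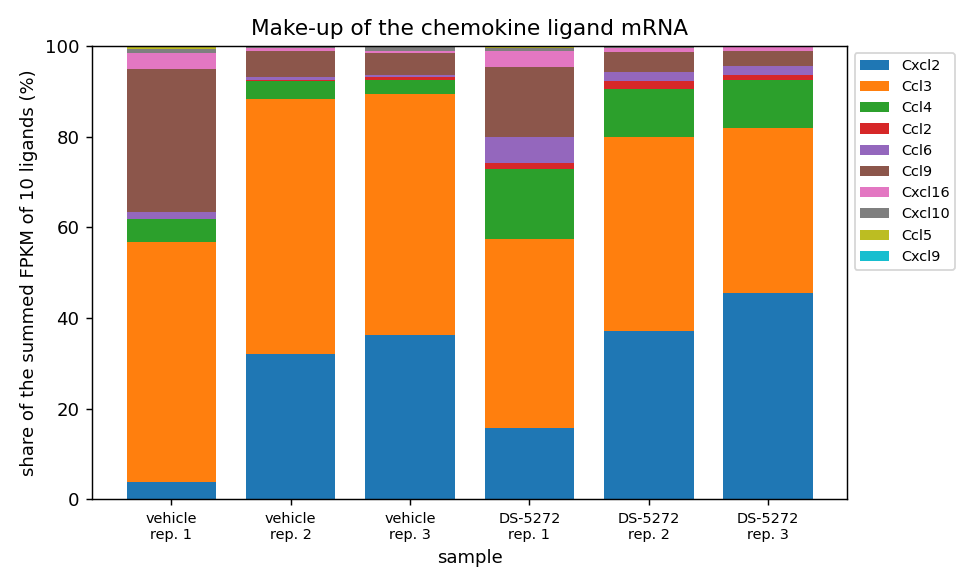
Stacked bars give the share (%) of each ligand in the summed FPKM of the 10 ligands, 1 bar per library. Ccl3 (orange) and Cxcl2 (blue) fill most of each bar, Ccl9 (brown) is widest in vehicle replicate 1 at 31.61% and in DS-5272 replicate 1 at 15.4%, and Ccl4 (green) is wider with DS-5272.

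The other chemokine ligands were mostly at 0 or below the filter. Of 28 further ligands 9 were at 0 in all libraries and 4 reached the filter, with a median log2 fold change of 0.24, 1 called higher and 1 called lower (24.2% of all genes tested were called higher and 22.0% lower). Ccl25, a ligand for T cells of the thymus and gut, rose from 1.73 ± 0.117 to 3.38 ± 0.550 FPKM (SD, n = 3; log2 fold change 0.68, adjusted p = 0.0094 from limma). Ccl17, a ligand of Ccr4, fell from 1.99 ± 0.169 to 1.02 ± 0.324 FPKM (log2 fold change -0.57, adjusted p = 0.0251 from limma). Some values of neighbours of the 10 ligands were picked out after they were seen. Cxcl3, a Cxcr2 ligand like Cxcl2, was 0, 0.341 and 0.652 FPKM with vehicle and 0.404, 8.52 and 18.7 FPKM with DS-5272, and it passed only with the block (adjusted p = 0.0737 without and 0.0174 with the block, from limma). Cxcl1, the direct neighbour of Cxcl2 and of the same function, was listed at 0 with vehicle and at no more than 0.0998 FPKM with DS-5272. Ccl7, next to Ccl2, was listed at 0 in the vehicle libraries and at 0.401, 0.358 and 0.123 FPKM in the DS-5272 libraries. Pf4 and Ppbp, which are also platelet markers, were too low to test. They were 0 to 0.167 and 0 to 0.117 FPKM with vehicle and 1.19 to 2.45 and 0.605 to 1.28 FPKM with DS-5272. Ccl24, also untested, had a lower mean with DS-5272 (0.0928 against 0.153 FPKM).

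Among 24 chemokine receptor genes 3 were at 0 in all libraries and 7 were tested. Of these 5 rose and none fell, with a median log2 fold change of 1.96, where 24.2% of all genes tested were called higher. Cxcr2, the receptor of Cxcl2, was 1.19, 1.02 and 1.04 FPKM with vehicle and 9.41, 14.7 and 27.2 FPKM with DS-5272 (log2 fold change 3.0, SE 0.34, limma adjusted p = 0.0021). Ccr1 was already abundant, at 28.2 ± 6.61 FPKM, and rose to 113 ± 20.5 FPKM (SD, n = 3; log2 fold change 1.96, adjusted p = 0.0016 from limma). Ccr2, the receptor of Ccl2, rose from 55.9 ± 29.8 to 191 ± 50.5 FPKM (1.84, adjusted p = 0.0086 from limma), and the scavenging receptor Ackr4 rose from 0.592 ± 0.115 to 1.87 ± 0.569 FPKM (0.83, adjusted p = 0.012 from limma).

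The receptors of the remaining ligands stayed below the filter. Cxcr3, the receptor of Cxcl9 and Cxcl10, was 0.218 to 0.357 FPKM with vehicle and 0.303 to 0.498 FPKM with DS-5272. Cxcr6, the receptor of Cxcl16, was 0.126 to 0.187 FPKM with vehicle and 0.305 to 0.761 FPKM with DS-5272. Ccrl2, a chemerin-binding relative of the receptors picked out after its values were seen, had the replicate pattern of Cxcl2, at 2.64, 19.5 and 31.8 FPKM with vehicle and 16.7, 153 and 416 FPKM with DS-5272. Its call was made only with the block (adjusted p = 0.0977 without and 0.0010 with the block, from limma).

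**Figure D5:**
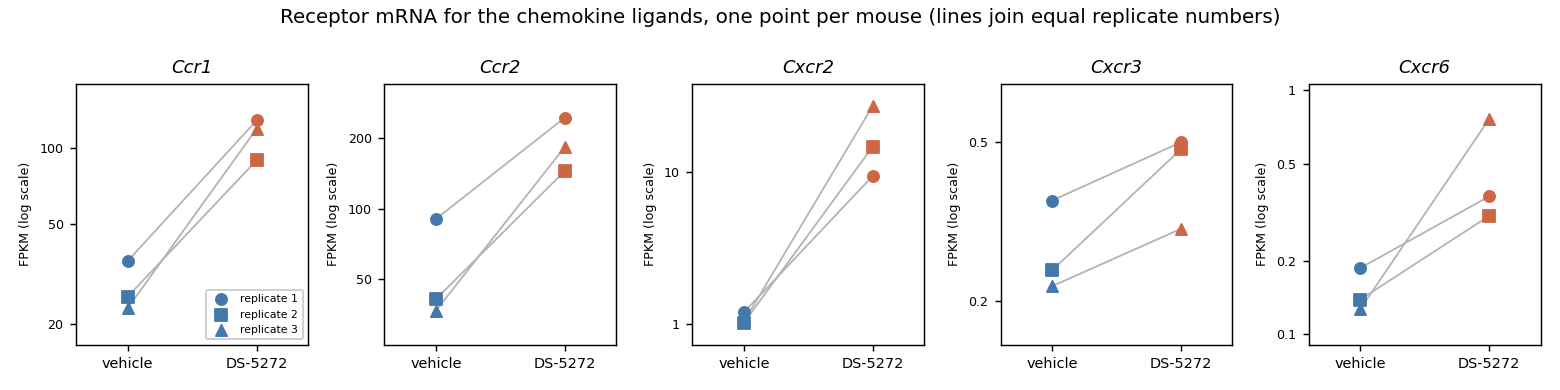
FPKM on a log axis of 5 receptor genes of the ligands, drawn as for the ligands, with 1 point per mouse and lines between equal replicate numbers. Ccr1, Ccr2 and Cxcr2 do not overlap between the groups, and Cxcr3 and Cxcr6 stay below 1 FPKM in every library.

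Genes that control transcription of chemokines or the stability of their mRNAs formed a list of 23, of which 20 were tested under their own symbol. Of these 14 rose and none fell, with a median log2 fold change of 1.47, where 24.2% of all genes tested were called higher. With the block 18 of these regulators were called higher, against 30.3% of all genes. The largest rises were those of Il1b, a cytokine that activates NF-kB (log2 fold change 4.27, SE 1.05, limma adjusted p = 0.017), Zfp36l1, which promotes decay of AU-rich mRNAs (2.81, SE 0.46, limma adjusted p = 0.0052), and the interferon regulatory factors Irf7 (2.39, SE 0.32, limma adjusted p = 0.0033) and Irf5 (2.12, SE 0.18, limma adjusted p = 0.00099). Il1b had the replicate order of Cxcl2, at 1.01, 9.63 and 12.99 FPKM with vehicle and 30.5, 194 and 347 FPKM with DS-5272. The 4 genes that the block added, picked out after their values were seen, were Nfkbia and Tnfaip3, feedback inhibitors of NF-kB, the cytokine gene Tnf, and Zfp36, which promotes decay of chemokine mRNAs. Their adjusted p-values were 0.333, 0.231, 0.253 and 0.232 without the block and 0.0026, 0.00032, 0.0015 and 0.0023 with it (limma). Each of the 4 was lowest in replicate 1 of both groups.

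Proteases that shed or cut chemokines moved in both directions. Of the 6 tested, 3 rose and 1 fell, with a median log2 fold change of 0.41, and 4 rose and 1 fell with the block. Over all genes tested, 24.2% were called higher and 22.0% lower, and 30.3% and 24.9% with the block. Mmp9 went from 9.93, 41.0 and 41.2 FPKM with vehicle to 236, 597 and 1097 FPKM with DS-5272 (log2 fold change 4.32, SE 0.71, limma adjusted p = 0.0052). Mmp8 rose with a log2 fold change of 3.36 (SE 0.53, limma adjusted p = 0.0048). Adam17, a sheddase of membrane proteins, rose with a log2 fold change of 0.53 (SE 0.16, limma adjusted p = 0.0346). Adam10, known for shedding Cxcl16, had a log2 fold change of 0.28 and passed only with the block (adjusted p = 0.093 without and 0.0449 with the block, from limma). The granule protease gene Ctsg fell by 0.94 on the log2 scale (SE 0.28, limma adjusted p = 0.0307).

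The summed level of mature neutrophil markers rose with DS-5272 and had the replicate order of Cxcl2. It was 455, 1859 and 2507 FPKM with vehicle and 4824, 12082 and 20157 FPKM with DS-5272. Vehicle replicate 1, the lowest here, was the highest vehicle mouse for Ccl9, Cxcl16 and Cxcl9. Of the 10 neutrophil markers, which include the granule and cytosolic protein genes Lcn2, S100a8 and S100a9, 8 were called higher (24.2% of all genes tested were), with a median log2 fold change of 3.18. In replicate 1 of both groups 8 were lowest (29.2% of all genes were). Mmp8 and Cxcr2 are themselves on this list, none of its genes was at 0 in all libraries, and the part of neutrophils or of maturing leukemia cells in the ligand levels was not tested. Erythroid markers summed to 4.68, 2.62 and 2.52 FPKM with vehicle and to 146, 27.4 and 12.7 FPKM with DS-5272. Within the DS-5272 group this order was that of Cxcl9 and of no other ligand, and within the vehicle group it was that of Ccl9. B cell markers summed to 3.72 to 5.55 FPKM in all libraries, with 6 of 7 under 1 FPKM. Megakaryocyte and platelet markers with an own entry and a stromal and endothelial list were also examined. The former gave 0 calls among 2 tested genes and summed to 2.62 to 2.91 FPKM with vehicle and 4.96 to 8.75 FPKM with DS-5272, and the latter, carried by Pecam1, summed to 29.3 to 60.6 and 73.5 to 113 FPKM.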

How the data were processed

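RNA-Seq was performed on MLL-AF9 leukemia cells of 6 mice, and samples were grouped by treatment as the labels give it. The authors prepared strand-specific paired-end libraries, trimmed reads with cutadapt 1.8.1, aligned them to GRCm38 transcripts with TopHat2 2.1.1 and computed gene FPKM values with Cufflinks 2.2.1. The deposited FPKM values are scaled to transcript length and library size, so no count model was used, and the annotation release and counting strand are not given in the sources used here. Of the 26632 lines, 433 joined several genes and stayed apart, and 435 names on several lines were summed. Depth was estimated from the fragment steps of low values in 343 genes with 1 transcript, which gives its scale only.

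Groups were compared with limma 3.58.1 in R 4.3.3 (lmFit, eBayes with trend, two-sided, log2(FPKM + 1), mean of at least 1 FPKM, Benjamini-Hochberg over 11130 genes, threshold 0.05), and the script was tested on simulated data. An exact permutation test of 1 gene with 3 mice against 3 cannot go below p = 0.1. Tables and plots were made in Python 3.11.15 (pandas 2.3.3, numpy 2.4.6, matplotlib 3.10.9). Replicate numbers run from 1 to 3 in both groups. Deviations from the group means correlated by 0.66, 0.21 and 0.43 between same-numbered mice, each above the limit of 0.1, and by -0.58 to 0.34 between others. Vehicle replicate 2 with DS-5272 replicate 3 (0.34) and vehicle replicate 3 with DS-5272 replicate 2 (0.18) were also above the limit. The correlations thus set replicate 1 apart but do not settle how replicates 2 and 3 pair. The numbers were taken to pair the mice, although no shared litter, batch or day is stated. The block was chosen from the same values that it then fits, so blocked calls are no independent support. The fit without the block is reported, and the blocked value where it changes a call.

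The 10 ligands and all gene lists were chosen with earlier results of these data known. Beside the ligands, the text names the members of 4 lists (other ligands, receptors, regulators, proteases) with the 4 largest rises and 3 largest falls past the threshold, the receptors of the ligands, up to 3 most abundant genes of a marker list, and the gene nearest in profile. A receptor that the rule selects is not reported here. Other named genes are given as chosen after their values were seen, and so is the list of immediate early genes. Alternatives were other pseudocounts, filters, scalings and eBayes settings, the replicate block, joined entries, a fold minimum and leaving out mice.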

Additional observations from a re-analysis of the deposited data

How the results depend on the processing

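The 9 tested ligands kept a positive log2 fold change in each of the 16 alternative fits, of which the one with a mean of at least 5 FPKM left out Ccl5. Ccl2, Ccl4, Ccl6, Ccl9 and Cxcl16 stayed past the threshold in all 16, Ccl5 in 11 of 15, Ccl3 in 3 of 16, and Cxcl2 and Cxcl10 in 2 of 16. The number of ligands called higher was 6 and lay between 5 and 7 when 1 mouse or replicate 1 of both groups was left out. With the replicate block it was 9, with 3367 genes called higher and 2771 lower, and 30 genes of the other ligands, receptors, regulators and proteases higher and 2 lower. Beyond the calls named above, the block also added Nfkbiz when joined entries were counted. No ligand was called lower in any of these fits.

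Over all genes 2697 were called higher and 2451 lower. Rescaling moved that split to 2233 and 3179 (common upper quartile) and to 1717 and 3536 (common total), and the median log2 fold change of all genes from 0.04 to -0.08 and -0.21, so each fold change is relative to this choice. A log2 fold change of at least 1 left 978 and 621. When 1 mouse was left out, 1623 to 2934 genes were called higher and 1389 to 2432 lower, both fewest when vehicle replicate 2 was the one left out. Omitting vehicle replicate 3 gave 1492 lower calls. In the 4 pathway lists 2 genes were called lower (Ccl17 and Ctsg), 4 with either rescaling or quantile normalization, 1 without a filter, with a mean of at least 5 FPKM or without replicate 1 of both groups, 0 with a log2 fold change of at least 1, and 0 to 3 when 1 mouse was left out. The cause was not tested. Low FPKM limit what can be said of Ccl5 and Cxcl9.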
